A study of Mus musculus with 21 samples.

Results

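Serine tRNAs that read the UCN codons were followed in mouse brain: the nuclear tRNAs with the anticodons AGA, CGA and TGA, chosen as every row of the deposited count tables whose name starts with Ser-AGA-, Ser-CGA- or Ser-TGA- and does not end in -MT, the mark of a mitochondrial tRNA. The rule gave 8 isodecoders, tRNAs with the same anticodon and a different body sequence: 3 for AGA, 3 for CGA and 2 for TGA. They stand among 208 tRNA rows in the cerebellum table and 209 in the cerebrum table, and among 14 nuclear serine rows in each. All 8 were present in both tables and all 8 passed the filter on low counts in both. Counts were also summed per anticodon, which gave 3 sums.

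Tamoxifen-treated Polr3a mutant mice were compared with tamoxifen-treated wildtype mice, all on the C57BL/6J strain, with recombination induced at P28 and tissue frozen at P42. Nuclear tRNA genes are transcribed by RNA polymerase III, of which the Polr3a product is the largest subunit. QuantM-tRNA-seq, a library method for tRNA, was applied to total RNA from 5 mutant and 6 wildtype cerebellum samples and from 4 mutant and 6 wildtype cerebrum samples. Each group held both sexes by label, in proportions that differed between genotypes. The allele and the Cre driver are not stated in the labels. Nor do the labels tie each library to its own animal, so the p-values cover only library-to-library spread, which may be technical. A tRNA library holds neither Polr3a nor markers of tissue or cell type, so genotype and tissue could not be checked in it.

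Serine tRNAs are charged by a common seryl-tRNA synthetase, which recognises the long variable arm of these molecules rather than the anticodon. The adenosine at the start of the AGA anticodon is converted to inosine, which lets this tRNA read UCU and UCC and, more weakly, UCA, while TGA reads chiefly UCA and CGA reads UCG. The remaining serine codons, AGU and AGC, are read by the tRNA with the GCT anticodon. Mitochondria use serine tRNAs of their own, transcribed from mitochondrial DNA by another polymerase.

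The mitochondrial tRNA that shares the TGA anticodon is shown because the naming rule separates it from the nuclear Ser-TGA rows. It is encoded by mt-Ts1 on the minus strand at chrM:6870-6938 (mm10, GENCODE M21) and is 69 bases long. The anticodon is in capitals, at bases 31 to 33 from the 5′ end.
mt-Ts1: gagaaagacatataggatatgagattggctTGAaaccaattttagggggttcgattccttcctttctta

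RefSeq's gene table (GRCm38.p6) lists 13 mouse nuclear tRNA genes for these anticodons: 7 for AGA, 3 for CGA and 3 for TGA. Their entries are all 82 bases long, and counts were set side by side without a correction for length. How evenly the library method captures each tRNA was not tested. Of the 13, 8 lie on chromosome 13, with 6 between positions 21919215 and 22022500 and 2 between 23500957 and 23518227. RefSeq's gene numbers are not tied to the row names of the count tables, so no row was assigned a position.

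Total counts per library ran from 2146717 to 7110313 in cerebellum mutants, from 1612754 to 5323340 in cerebellum wildtypes, from 4830413 to 7588902 in cerebrum mutants and from 4353056 to 6171896 in cerebrum wildtypes. The cerebellum libraries fell into a shallower and a deeper class that followed genotype in part: mutant 1 and wildtypes 1, 2, 3, 4 and 6 held at most 2272675 counts, and mutants 2 to 5 and wildtype 5 at least 4831721. Mitochondrial tRNAs took 17.2% ± 3.0 of counts in cerebellum mutants and 13.4% ± 0.70 in cerebellum wildtypes (SD, n = 5 and 6), and 14.3% ± 1.19 in cerebrum mutants and 11.2% ± 0.44 in cerebrum wildtypes (SD, n = 4 and 6). Levels below are CPM, counts brought to a common library size, after TMM scaling, which assumes that most tRNAs do not differ, so a shift shared by all nuclear tRNAs would not be seen. Fewer cells of a type and less tRNA per cell cannot be told apart in these bulk samples.

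Ser-TGA-1-1, the leading Ser-TGA row, was the most counted of the 8. It held 36.9% ± 1.74 of nuclear serine counts in cerebellum mutants and 38.0% ± 2.0 in cerebellum wildtypes (SD, n = 5 and 6). In cerebrum it held 41.8% ± 4.11 in mutants and 45.2% ± 2.08 in wildtypes (SD, n = 4 and 6). Ser-CGA-2-1 came next, with group means of 19.1% to 22.3%. Ser-CGA-1-1 and Ser-TGA-2 each held group means between 1.66% and 2.20%. Ser-AGA-2 and Ser-CGA-3-1 were minor species, with group means of 0.244% to 0.436% and 0.179% to 0.420%. Ser-AGA-3-1 and Ser-AGA-1-1 were the scarcest of the 8, with group means of 0.0290% to 0.0625% and of 0.0130% to 0.0169%.

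Most reads of each anticodon came from its leading row. Ser-TGA-1-1 made up 94.5% to 96.3% of the Ser-TGA sum in the 4 group means, Ser-CGA-2-1 made up 88.4% to 92.4% of the Ser-CGA sum, and Ser-AGA-2 made up 80.0% to 85.4% of the Ser-AGA sum. The counts of an anticodon sum therefore follow its leading isodecoder, and a change in a minor isodecoder can be invisible in the sum. The Ser-AGA pool was the smallest of the 3 by assigned counts, and how reads matching more than 1 isodecoder were assigned is not stated. Its sum held 0.390% ± 0.026 of nuclear serine counts in cerebellum mutants and 0.511% ± 0.041 in cerebellum wildtypes (SD, n = 5 and 6).

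**Figure D1:**
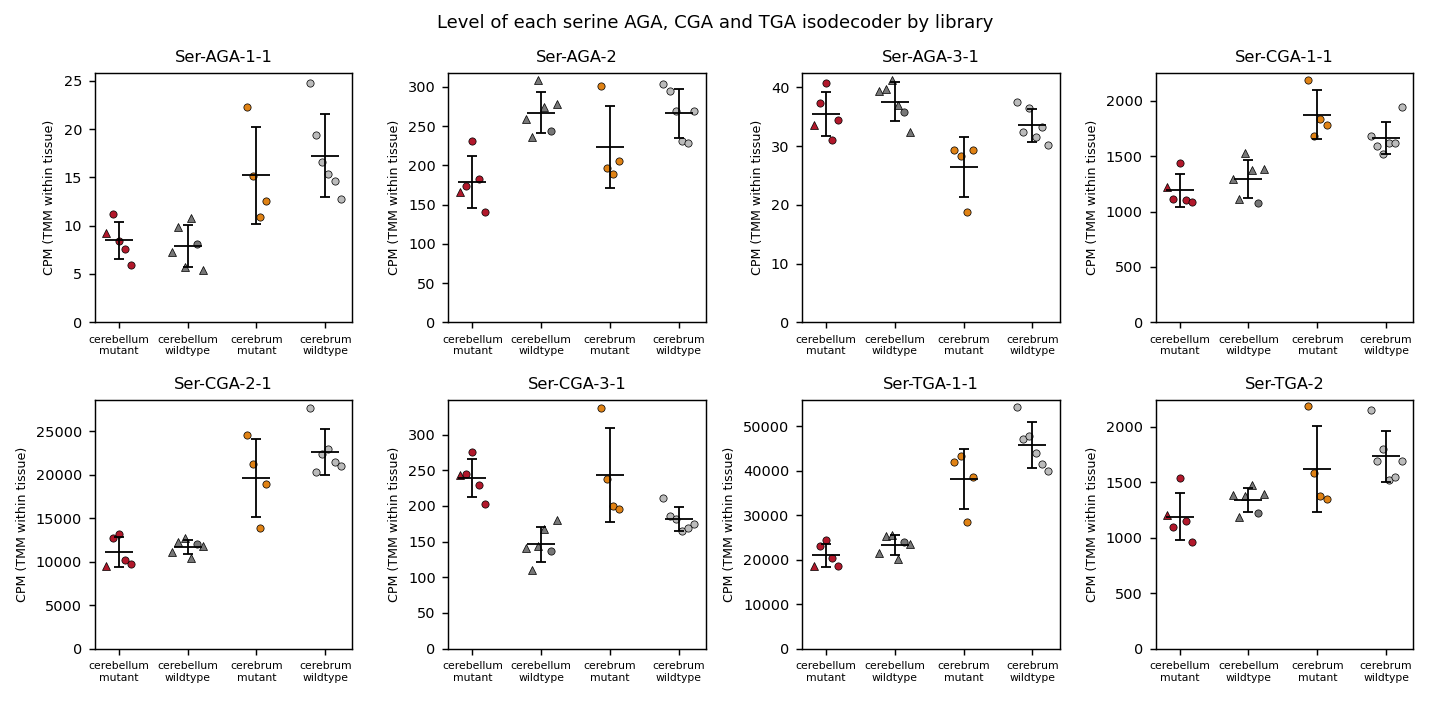
Level of each of the 8 isodecoders in every library, in CPM on linear axes that start at 0 and differ between panels; the horizontal mark is the group mean and the bar 1 SD (n = 5, 6, 4 and 6 from left to right). Triangles are the shallower cerebellum libraries and circles all others. TMM scaling was done within each tissue, so mutant and wildtype are comparable within a tissue; for Ser-CGA-3-1 the 5 cerebellum mutants lie between 202 and 275 CPM, all above the wildtypes, and for Ser-AGA-2 between 141 and 231 CPM, all below them.

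In mutant cerebellum a pair of minor isodecoders moved in opposite directions: Ser-CGA-3-1 was higher and Ser-AGA-2 lower, while Ser-TGA-1-1 and Ser-CGA-2-1, the most counted of the 8, did not pass the test. Ser-CGA-3-1, a minor Ser-CGA row, had 243, 245, 275, 229.8 and 202 CPM in mutants 1 to 5, against a lowest of 109.8, a median of 142 and a highest of 179.8 CPM in the 6 wildtypes. All mutants lay above all wildtypes. Its log2 fold change was 0.71 ± 0.14 (SE), with an adjusted p of 0.0145 (edgeR quasi-likelihood F test, Benjamini-Hochberg over 202 tRNAs). Ser-AGA-2, the main Ser-AGA row, had 166, 174, 231, 183 and 141 CPM in mutants 1 to 5, against a lowest of 236, a median of 267 and a highest of 309 CPM in wildtypes. All mutants lay below all wildtypes. Its log2 fold change was −0.58 ± 0.14 (SE), with an adjusted p of 0.0335 in edgeR.

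The test called 2.48% of all 202 tRNAs in cerebellum, 0.495% as higher and 1.98% as lower. Ser-CGA-3-1 was the only tRNA called higher, and Ser-AGA-2 was among 4 called lower; without mutant 5, the test called 15 higher and 18 lower of 204. Groups that do not overlap were seen in 2.97% of all tRNAs tested.

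The remaining 6 isodecoders of cerebellum had overlapping groups and, with TMM scaling, did not pass. Ser-TGA-1-1, the most counted, had 18667, 22951, 24337, 20322 and 18633 CPM in mutants 1 to 5, against a lowest of 20080.4, a median of 23736 and a highest of 25609 CPM in wildtypes. Its log2 fold change of −0.15 had a 95% interval of −0.36 to 0.06 and an adjusted p of 0.499 in edgeR. Ser-CGA-2-1, the main Ser-CGA row, averaged 11078 ± 1740.0 CPM in mutants and 11712 ± 817 CPM in wildtypes (SD, n = 5 and 6), and its log2 fold change was −0.08 with a 95% interval of −0.30 to 0.14. The other 4 had log2 fold changes of −0.17 for Ser-TGA-2, −0.12 for Ser-CGA-1-1, −0.08 for Ser-AGA-3-1 and 0.09 for Ser-AGA-1-1. The last rests on 11 to 55 reads per library, and its interval of −0.38 to 0.56 is the widest of the 8.

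Depth class and genotype overlapped in part in cerebellum. In the shallower libraries Ser-CGA-3-1 had 243 CPM in the mutant and 148 CPM on average in the 5 wildtypes, and in the deeper ones 238 CPM on average in the 4 mutants and 136 CPM in the wildtype. Ser-AGA-2 had 166 CPM in the mutant and 271 CPM on average in the 5 wildtypes of the shallower class, and 182 CPM on average in the 4 mutants and 244 CPM in the wildtype of the deeper class. Both differences thus had the same direction in each class. With depth class as a covariate neither passed: the log2 fold change was 0.76 (adjusted p = 0.0682) for Ser-CGA-3-1 and −0.57 (adjusted p = 0.134) for Ser-AGA-2 in edgeR.

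The Ser-AGA-2 call also depended on single libraries and other settings, and the Ser-CGA-3-1 call on the scaling. Ser-AGA-2 kept its direction but missed the threshold in 8 of 11 fits that left out 1 library (mutants 1, 2 and 4 and wildtypes 1, 3, 4, 5 and 6), with adjusted p-values of up to 0.109 in edgeR. It also missed with sex as a covariate (−0.56, adjusted p = 0.0658 in edgeR) and with nuclear tRNAs only (−0.53, adjusted p = 0.0505). Ser-CGA-3-1 passed in all 11 fits that left out 1 library. Scaled to the mitochondrial tRNA total, its log2 fold change was 0.37 (adjusted p = 0.187 in edgeR), and scaled to the bacterial spike-in it was 0.13 (adjusted p = 0.662), while these scalings lowered the median of all tRNAs to −0.37 and −0.59 from −0.03. With spike-in scaling 5 of 8 members were called lower, beside 41.1% of all 202 tRNAs: Ser-AGA-2, Ser-TGA-2 (−0.74, adjusted p = 0.0257), Ser-TGA-1-1 (−0.70, 0.0274), Ser-CGA-1-1 (−0.70, 0.0330) and Ser-CGA-2-1 (−0.64, 0.0358 in edgeR).

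In mutant cerebrum no member passed the test, and Ser-CGA-3-1 again had the highest estimate. It had 338, 238, 199.6 and 196 CPM in mutants 1 to 4, against a lowest of 164, a median of 179 and a highest of 212 CPM in the 6 wildtypes. Mutants 1 and 2 lay above all wildtypes and mutants 3 and 4 within their range. The log2 fold change was 0.42 ± 0.16 (SE), with an adjusted p of 0.0612 (edgeR, 208 tRNAs). In this comparison 19.7% of all tRNAs were called, 8.17% as higher and 11.5% as lower. Of the 17 called higher, 15 were mitochondrial. Among the 186 nuclear tRNAs tested, 2 were called higher and 24 lower, so 0 of 8 members does not set the members apart from nuclear tRNAs. At an unadjusted p under 0.05 edgeR gave 1 member, DESeq2 called 1 member, Ser-CGA-3-1, with a log2 fold change of 0.48 and an adjusted p of 0.0090, and limma-voom called 0. The shares of all tRNAs under these rules are not given, so the counts are not set against a background. Single libraries bore on this value: without mutant 3, mutant 4 or wildtype 1 Ser-CGA-3-1 was called higher, at 0.51, 0.51 and 0.49 (adjusted p = 0.0430, 0.0427 and 0.0335 in edgeR).

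Scaling decided how the cerebrum members read. Scaled to the mitochondrial tRNA total, which lowered the median of all tRNAs to −0.41 from −0.03, 6 of 8 members were called lower, beside 53.4% of all 208 tRNAs. Scaled to the spike-in, which lowered that median to −0.36, 4 of 8 were, beside 35.6%. Ser-CGA-3-1 was at 0.02 and 0.04 under these scalings, and Ser-CGA-1-1, at 0.17 with TMM, turned to −0.22 and −0.19.

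The abundant isodecoders of cerebrum had lower means in mutants and did not pass with TMM scaling. Ser-TGA-1-1 had 41909, 43361, 28426 and 38535 CPM in mutants 1 to 4, against a lowest of 39986, a median of 45518 and a highest of 54209 CPM in wildtypes. Mutants 3 and 4 lay below all wildtypes and mutants 1 and 2 inside their range. The log2 fold change was −0.27 with a 95% interval of −0.55 to 0.02 and an adjusted p of 0.213 in edgeR. It was called lower with library totals (−0.32, adjusted p = 0.0452) and with the replicate number as a block (−0.36, adjusted p = 0.0327). Ser-CGA-2-1 averaged 19640 ± 4486 CPM in mutants and 22612 ± 2682 CPM in wildtypes (SD, n = 4 and 6), with a log2 fold change of −0.20. Ser-AGA-2 had 301, 197, 188 and 205 CPM in mutants 1 to 4, against a lowest of 229, a median of 269 and a highest of 304 CPM in wildtypes, with a log2 fold change of −0.25 and an adjusted p of 0.258 in edgeR. Mutants 2, 3 and 4 lay below all wildtypes and mutant 1 near their top.

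Ser-AGA-3-1 was the only member whose cerebrum groups did not overlap, which was so for 15.4% of all tRNAs tested and, with mutants lower, for 9.62%. It had 29.3, 28.3, 18.8 and 29.3 CPM in mutants 1 to 4, and 30.1 to 37.5 CPM in wildtypes, and its log2 fold change of −0.34 had an adjusted p of 0.196 in edgeR. The remaining estimates were −0.17 for Ser-AGA-1-1, −0.10 for Ser-TGA-2 and 0.17 for Ser-CGA-1-1. The median over the 8 members was −0.19 in cerebrum and −0.10 in cerebellum, beside −0.03 and −0.03 over all tRNAs tested. Over the nuclear tRNAs tested the median was −0.07 in cerebrum and −0.06 in cerebellum. Over the 22 mitochondrial ones it was 0.42 and 0.34. With mutant 1 left out, Ser-AGA-2 was called lower in cerebrum (log2 fold change −0.38, adjusted p = 0.0481 in edgeR).

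**Figure D2:**
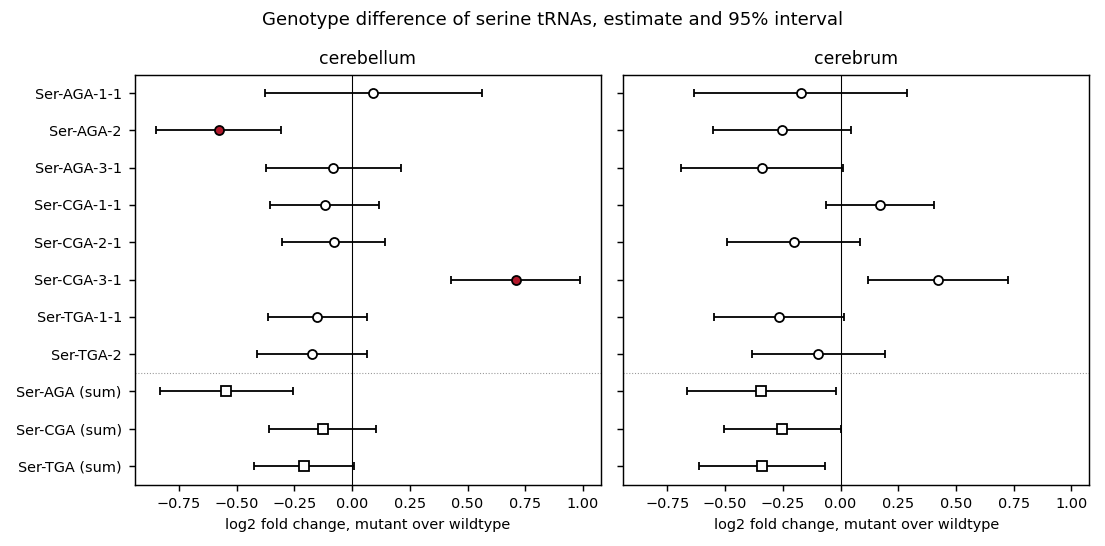
Log2 fold change of mutant over wildtype for the 8 isodecoders (circles) and the 3 anticodon sums (squares) in cerebellum (left) and cerebrum (right), with 95% intervals. Filled symbols passed an adjusted p of 0.05; these are Ser-CGA-3-1 at 0.71 and Ser-AGA-2 at −0.58 in cerebellum.

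Summed per anticodon, none of the 3 pools passed in either tissue with TMM scaling. The fits of the sums used TMM factors found over anticodons, whereas the CPM given for sums within a tissue used those found over isodecoders. The fold change of a sum can therefore differ from that of its leading isodecoder and from the printed CPM. In cerebellum the Ser-AGA sum had 208, 222, 279.7, 222 and 181 CPM in mutants 1 to 5, against a lowest of 286, a median of 311 and a highest of 356 CPM in wildtypes. All mutants lay below all wildtypes, as in 1.41% of the 71 anticodons, with a log2 fold change of −0.54 ± 0.15 (SE) and an adjusted p of 0.0853 in edgeR. The Ser-CGA and Ser-TGA sums were at −0.13 and −0.21 with overlapping groups. Of all 71 anticodons edgeR called 0 in cerebellum. Of the 3 sums, Ser-AGA alone was under an unadjusted p of 0.05 there, DESeq2 called 1 and limma-voom called 0, with no share of all anticodons given for these rules. The Ser-AGA sum was called lower without mutant 3 (−0.65, adjusted p = 0.0061 in edgeR) and without mutant 5 (−0.44, adjusted p = 0.0462).

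In cerebrum the estimates were −0.34 for Ser-AGA (adjusted p = 0.151), −0.25 for Ser-CGA (adjusted p = 0.181) and −0.34 for Ser-TGA (adjusted p = 0.0956) in edgeR, where 11.1% of 72 anticodons were called. At an unadjusted p under 0.05 there were 2, DESeq2 called 2 and limma-voom called 0, again with no share of all anticodons given. Without cerebrum mutant 1 all 3 sums were called lower in edgeR, at −0.48 for Ser-AGA, −0.35 for Ser-CGA and −0.37 for Ser-TGA, beside 11.1% of anticodons called lower. With the replicate number as a block all 3 were called lower as well, at −0.41, −0.31 and −0.43 (adjusted p = 0.0023, 0.0187 and 0.0101 in edgeR), beside 13.9% of anticodons. In that fit wildtypes 5 and 6 had no mutant of their number and did not bear on the genotype estimates. The labels state no such pairing, and same-numbered libraries of the genotypes did not all share a sex. Together the 8 isodecoders held 4.17% ± 0.53 of nuclear counts in cerebellum mutants and 4.43% ± 0.22 in cerebellum wildtypes (SD, n = 5 and 6), and 7.01% ± 0.70 in cerebrum mutants and 8.22% ± 0.62 in cerebrum wildtypes (SD, n = 4 and 6).

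Because library scaling shifts all tRNAs together, each isodecoder was also set against the other nuclear isodecoders of its amino acid, a ratio that does not depend on scaling. On this measure Ser-CGA-3-1 took a larger part of the serine pool in mutants of both tissues. In cerebellum it held 0.446%, 0.395%, 0.419%, 0.417% and 0.425% of nuclear serine counts in mutants 1 to 5, against a lowest of 0.173%, a median of 0.232% and a highest of 0.292% in wildtypes. In cerebrum it held 0.297%, 0.251%, 0.280% and 0.227% in mutants 1 to 4, against a lowest of 0.171%, a median of 0.178% and a highest of 0.190% in wildtypes. Mutants and wildtypes did not overlap in either tissue.

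The log2 difference of this ratio was 0.83 ± 0.13 (SE) in cerebellum, with an adjusted p of 0.0036 (limma, 179 nuclear isodecoders), and 0.55 ± 0.09 in cerebrum, with an adjusted p of 0.00053 (limma, 184 nuclear isodecoders). It was called in all 11 and all 10 fits that left out 1 library, and in cerebellum also with depth class as a covariate (0.89, adjusted p = 0.0312). The background was 5.59% of isodecoders called in cerebellum and 31.5% in cerebrum, with 3.91% and 25.5% showing groups that do not overlap. This comparison is not independent of the levels above, since both use the same counts.

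Ser-AGA-2 took a smaller part of the serine pool in cerebellum. It held 0.304%, 0.279%, 0.351%, 0.332% and 0.296% in mutants 1 to 5, against a lowest of 0.372%, a median of 0.444% and a highest of 0.478% in wildtypes, with no overlap. Its log2 difference was −0.48 ± 0.10 (SE), with an adjusted p of 0.0109 in limma. It passed in all 11 fits that left out 1 library and missed the threshold with depth class as a covariate (−0.46, adjusted p = 0.108). In cerebrum its shares of 0.208% to 0.265% in mutants and 0.240% to 0.302% in wildtypes overlapped, and the log2 difference of −0.11 did not pass (adjusted p = 0.398 in limma).

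The other 6 isodecoders did not pass on this measure in either tissue. Ser-CGA-1-1 came closest, in cerebrum, where it held 1.93%, 1.77%, 2.58% and 2.07% in mutants 1 to 4, against 1.42% to 2.05% in wildtypes, a log2 difference of 0.33 with an adjusted p of 0.0513 in limma. It passed without mutant 2 (0.41, adjusted p = 0.0206) and without wildtype 6 (0.40, adjusted p = 0.0145). Within the Ser-CGA sum, Ser-CGA-3-1 made up 1.92% ± 0.19 in cerebellum mutants and 1.12% ± 0.22 in cerebellum wildtypes (SD, n = 5 and 6), and 1.12% ± 0.16 in cerebrum mutants and 0.744% ± 0.059 in cerebrum wildtypes (SD, n = 4 and 6). It is counted beside Ser-CGA-2-1, which has many times more reads, and the sources used here do not say where a read went that matched more than 1 isodecoder, so the role of read assignment in these shares was not tested.

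**Figure D3:**
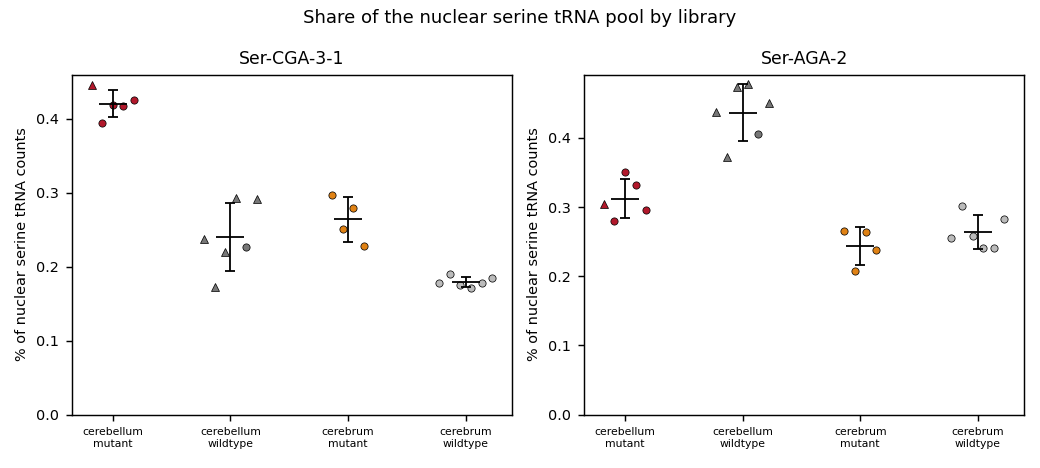
Share of nuclear serine tRNA counts held by Ser-CGA-3-1 (left) and Ser-AGA-2 (right) in every library, with group mean and 1 SD (n = 5, 6, 4 and 6 from left to right); triangles are the shallower cerebellum libraries. The Ser-CGA-3-1 share is above all wildtypes in all 5 cerebellum and all 4 cerebrum mutants, and the Ser-AGA-2 share is below all wildtypes in the 5 cerebellum mutants.

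The genotype effect on the members was not shown to differ between the tissues. In a joint fit of all 21 libraries, 0 of 8 passed the interaction test in edgeR, against 4.9% of 204 tRNAs. Likewise 0 did at an unadjusted p under 0.05, with DESeq2 or with limma-voom. The shares of all tRNAs under these 3 rules are not given, so those counts have no background. The cerebellum effect minus the cerebrum effect was 0.26 for Ser-CGA-3-1, with a 95% interval of −0.17 to 0.70 and an adjusted p of 0.65 in edgeR. It was −0.34 for Ser-AGA-2, with an interval of −0.77 to 0.08 and an adjusted p of 0.482. A smaller or larger effect in either tissue is within these intervals.

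Between tissues, the CGA and TGA pools of wildtypes were lower in cerebellum than in cerebrum and the AGA pool was not called with TMM scaling. In wildtype mice 6 of the 8 isodecoders were lower in cerebellum and 0 higher (edgeR, joint fit), beside 37.7% of 204 tRNAs called lower and 33.3% called higher. The tissues were counted in separate tables, so tissue and table cannot be told apart, and levels here were scaled over all 21 libraries together. The fit takes all 21 as unrelated, although same-numbered libraries of the tissues have the same labelled sex and may share an animal, which the labels do not say.

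Ser-TGA-1-1 ran from 17849 to 22762 CPM in cerebellum wildtypes with a median of 21276, against 43946 to 54486 CPM with a median of 49912 in cerebrum wildtypes. The log2 difference was −1.27 ± 0.12 (SE), with an adjusted p of 2.0e-10 in edgeR. Ser-CGA-2-1 ran from 9299 to 11093 CPM with a median of 10641 in cerebellum, against 22295 to 27149.5 CPM with a median of 24828 in cerebrum, a log2 difference of −1.24 ± 0.12 (SE). Neither pair of groups overlapped, as was the case for 28.4% of all tRNAs in this direction.

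The less counted isodecoders varied more among themselves. Ser-TGA-2, Ser-CGA-1-1 and Ser-CGA-3-1 were lower in cerebellum by smaller amounts, with log2 differences of −0.66, −0.66 and −0.60. Ser-AGA-1-1 was lower as well, at −1.41 ± 0.23 (SE), and ran from 4.83 to 9.63 CPM in cerebellum wildtypes, against 14.1 to 24.3 CPM in cerebrum wildtypes. Ser-AGA-2, with 213 to 264 CPM in cerebellum and 253 to 324 CPM in cerebrum, and Ser-AGA-3-1, with 29.0 to 35.9 CPM in cerebellum and 33.1 to 41.5 CPM in cerebrum, overlapped and did not pass (log2 differences −0.29 and −0.13, adjusted p = 0.0667 and 0.435 in edgeR). Ser-AGA-2 passed in 3 fits that left out 1 library (cerebrum mutant 1, cerebellum mutant 3 or 5), with adjusted p-values of 0.0265 to 0.0455. With library totals in place of TMM their differences turned to 0.0021 and 0.16, and that scaling raised the median of all tRNAs to 0.24 from −0.05. With spike-in scaling, which lowered that median to −0.99, all 8 members were called lower, beside 67.6% of all tRNAs, with Ser-AGA-2 at −1.16 (adjusted p = 1.3e-06 in edgeR) and Ser-AGA-3-1 at −1.03 (adjusted p = 0.00019). The median over the 8 members was −0.66 with TMM, beside −0.05 over all 204 tRNAs.

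In mutants 6 of 8 isodecoders were lower in cerebellum and 0 higher, beside 36.8% of all tRNAs called lower and 35.8% called higher. Ser-TGA-1-1 was at −1.17, Ser-CGA-2-1 at −1.14, Ser-AGA-1-1 at −1.18, Ser-CGA-1-1 at −0.96, Ser-TGA-2 at −0.76 and Ser-AGA-2 at −0.63. Ser-CGA-3-1 did not pass in mutants (−0.34, adjusted p = 0.0684 in edgeR), though it did without cerebrum mutant 3, cerebrum mutant 4, cerebellum mutant 3 or cerebrum wildtype 1 (−0.45 to −0.36). Ser-AGA-3-1 did not pass in mutants either (0.11, adjusted p = 0.579 in edgeR). With spike-in scaling both were called lower, at −1.39 and −0.97, and with library totals Ser-AGA-3-1 was called higher, at 0.45, and Ser-AGA-2 missed the threshold, at −0.28. By anticodon in wildtypes, the Ser-TGA sum was lower at −1.22 ± 0.12 and the Ser-CGA sum at −1.16 ± 0.13 (SE), while Ser-AGA was at −0.29 (adjusted p = 0.0777 in edgeR), where 75% of 72 anticodons were called and 38.9% were called lower. The Ser-GCT sum, which reads the other serine codons, was lower at −0.59 ± 0.13. Without cerebrum wildtype 5 the Ser-AGA sum passed (−0.32, adjusted p = 0.0465 in edgeR), and with spike-in scaling it was called lower at −1.19 (adjusted p = 7.4e-08).

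**Figure D4:**
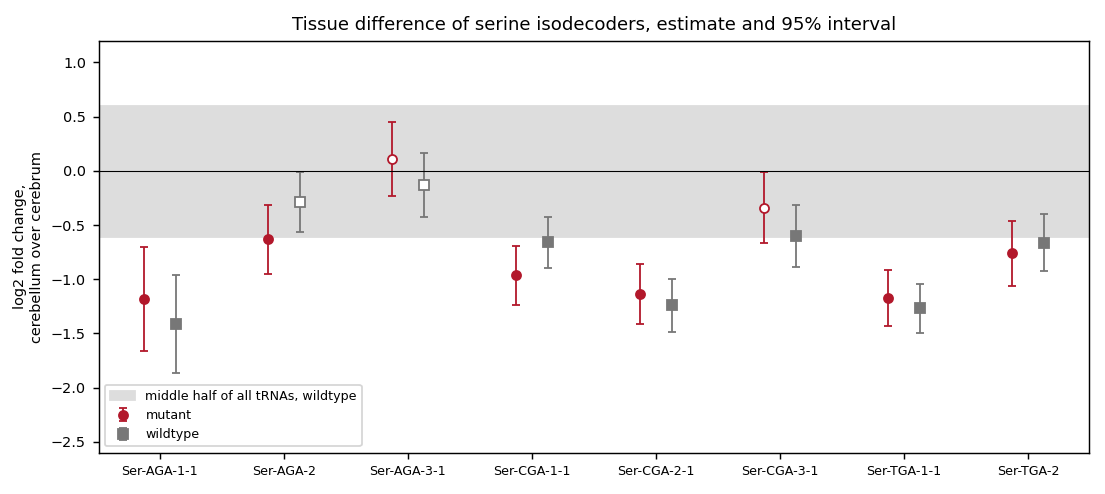
Log2 fold change of cerebellum over cerebrum for the 8 isodecoders in mutants (circles) and wildtypes (squares), with 95% intervals. Filled symbols passed an adjusted p of 0.05. Intervals use normal quantiles and run somewhat narrow. That of Ser-CGA-3-1 in mutants, −0.67 to −0.01, leaves out 0 at an unadjusted p of 0.0517 in edgeR. The grey band, from −0.61 to 0.60, runs from the 25% to the 75% quantile of all tRNAs in wildtypes; Ser-TGA-1-1, Ser-CGA-2-1, Ser-AGA-1-1, Ser-CGA-1-1 and Ser-TGA-2 lie below it in both genotypes.

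Set against the rest of the serine pool, the composition differed between tissues as well. In wildtypes 5 of 8 isodecoders held a larger part in cerebellum and 2 a smaller one, beside 37.2% and 25% of 180 nuclear isodecoders (limma). Ser-AGA-3-1 and Ser-AGA-2 had log2 differences of 0.89 ± 0.10 and 0.73 ± 0.09, and Ser-CGA-3-1, Ser-TGA-2 and Ser-CGA-1-1 of 0.40, 0.36 and 0.36. Ser-TGA-1-1 and Ser-CGA-2-1 had −0.43 ± 0.08 and −0.28 ± 0.06 (SE). Ser-AGA-1-1, at −0.39, missed the threshold (adjusted p = 0.0615 in limma) and passed without cerebrum wildtype 6, cerebellum wildtype 2 or cerebellum wildtype 4 (adjusted p of 0.0150 to 0.0397). The Ser-TGA sum held 40.2% ± 1.76 of nuclear serine counts in cerebellum wildtypes and 46.9% ± 2.08 in cerebrum wildtypes, and the Ser-AGA sum held 0.511% ± 0.041 in cerebellum wildtypes and 0.314% ± 0.025 in cerebrum wildtypes (SD, n = 6 each).

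Related tRNAs gave the frame for these values. Of the 5 Ser-GCT isodecoders 0 were called between genotypes in cerebellum, and 1 was in cerebrum, Ser-GCT-1-1, which was lower in mutants with 455 ± 157 CPM against 933 ± 180 CPM in wildtypes (log2 fold change −1.03 ± 0.20 SE, adjusted p = 0.00065 in edgeR, n = 4 and 6). Leucine tRNAs, the other nuclear family with a long variable arm and many members, had 0 of 17 called in cerebellum and 3 of 16 lower in cerebrum. Of the 31 other isodecoders whose anticodon starts with A, 0 were called in cerebellum and 8 were lower in cerebrum, beside 4 and 24 lower among all tRNAs tested. SeC-TCA-1-1, the selenocysteine tRNA, which seryl-tRNA synthetase also charges, did not pass in either tissue (−0.26 in cerebellum and 0.16 in cerebrum). The mitochondrial Ser2-GCT-MT was higher in mutant cerebrum with TMM scaling, by 0.51 ± 0.10 (SE, adjusted p = 0.0010 in edgeR). There 15 of 22 mitochondrial tRNAs were called higher, with a median of 0.42 over the 22. Ser1-TGA-MT, whose sequence is given above, was at 0.06. In cerebellum Ser2-GCT-MT was at 0.25 and Ser1-TGA-MT at 0.45 and neither passed, beside 0 of 22 called and a median of 0.34.

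The authors deposited comparisons of their own. In the authors' deposited tables the log2 fold changes followed ratios scaled to the mitochondrial tRNA total, with a Pearson r of 0.9994 across 208 tRNAs in cerebellum and −0.9995 across 209 in cerebrum, so the cerebrum isodecoder table runs wildtype over mutant. A shift shared by all tRNAs does not alter r, so r gives the direction of the tables and not the scaling behind them. These tRNAs are not independent replicates. In the authors' deposited cerebellum table Ser-AGA-2 has −0.85 (adjusted p = 0.0016) and Ser-CGA-3-1 has 0.42 (adjusted p = 0.147). In the authors' deposited cerebrum isodecoder table, with wildtype over mutant, Ser-AGA-2 has 0.66 (adjusted p = 0.0010), Ser-TGA-1-1 has 0.68 (adjusted p = 0.00022) and Ser-CGA-3-1 has −0.02 (adjusted p = 0.948). In the same authors' deposited table Ser2-GCT-MT, called higher in mutants with TMM, has −0.11 (adjusted p = 0.252). Ser1-TGA-MT has 0.35 there (adjusted p = 0.0137), which is lower in mutants.

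The Ser-TGA row of the authors' deposited cerebrum anticodon table does not match its isodecoders. Its mean level is 157802, whereas the mean levels of the Ser-TGA isodecoders in the authors' deposited isodecoder table sum to 243117, which is 1.54 times as much. In the authors' deposited table the means of Ser-GCT, 157496, and Ser-GGA, 306, add up to the printed Ser-TGA mean within 1e-04. The log2 fold change in the authors' deposited table is −0.35 for Ser-TGA and −0.35 for Ser-GCT. In the authors' deposited cerebellum table the Ser-TGA mean of 77058 equals the sum of its isodecoders. The Ser-TGA values reported above were summed from the deposited counts and do not use that row.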

How the data were processed

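For each tissue the authors deposited whole-number read counts by tRNA, with no normalization in the values. Per the file headers, the authors' own comparisons hold log2 fold changes, p-values, a test score and a mean signal (counts over size factors), by tRNA and by anticodon. The tools named in the submitters' processing notes are cutadapt, Bowtie2, featureCounts and DESeq2, with mm10; their versions are not given there.

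The bacterial spike-in row entered neither the library sizes nor any test. In R 4.3.3, edgeR 4.0.16 was run over all tRNAs of a table (TMM, filterByExpr with a minimum count of 10, robust quasi-likelihood, two-sided F tests, Benjamini-Hochberg, threshold 0.05), per tissue for genotype and over 21 libraries and 204 shared tRNAs for tissue and interaction. A standard error is the log2 fold change over the square root of F. Ratios within an amino acid used log2 with a pseudocount of 0.5 on both counts, in limma 3.58.1 with robust and trended eBayes. DESeq2 1.42.0 and limma-voom were alternatives. Steps were tested on simulated data. The members, lists, tests and named tRNAs (all members and their sums, plus related serine and selenocysteine tRNAs) were chosen with earlier results of these data known. Replicates of a group differed by more than counting noise (chi-square per degree of freedom of at least 44.3 for every pair). Nuclear tRNA sequences were not used here.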

Additional observations from a re-analysis of the deposited data

Results flagged for a closer look

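Among 44 sets of values, the 8 isodecoders and 3 sums in 4 groups, 4 had a highest or lowest library that stood apart from the rest of its group by more than Dixon's 95% limit; chance alone gives about 1 in 20. Ser-AGA-2 in cerebrum mutant 1 was at 301 CPM, with the nearest other mutant at 205 CPM. Ser-AGA-3-1 in cerebrum mutant 3 was at 18.8 CPM, with the nearest at 28.3 CPM. Ser-CGA-2-1 in cerebrum wildtype 1 was at 27730.2 CPM, with the nearest at 22919 CPM, and the Ser-CGA sum in the same library was at 29625 CPM, with the nearest at 24705 CPM.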

How the results depend on the processing

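Counts of called members moved with the scaling. In cerebrum 0 of 8 isodecoders became 6 with mitochondrial scaling and 4 with spike-in scaling, all lower. It became 1, Ser-CGA-3-1 as higher, with RLE size factors, DESeq2, no filter, sex as a covariate and nuclear tRNAs only. With library totals and the replicate block it became 1 as well, but Ser-TGA-1-1 as lower. Leaving out 1 library gave 0 to 1. In cerebellum 2 became 1 with mitochondrial scaling, sex or nuclear tRNAs only, 5 with spike-in scaling and 0 with depth class; leaving out 1 library gave 1 to 2. Of the 3 sums, cerebrum gave 1 with library totals, 3 with mitochondrial scaling, 2 with spike-in scaling, 2 with DESeq2, 3 with the replicate block and 0 to 3 without 1 library. Cerebellum gave 1 with mitochondrial scaling, 3 with spike-in scaling, 1 with DESeq2 and 0 to 1 without 1 library. For the ratio within serine, cerebrum gave 2 with a pseudocount of 5, sex or the replicate block and 1 to 2 without 1 library, and cerebellum 1 with depth class, an alternative chosen after seeing the data. The cause was not tested. For most of these settings the share of all tRNAs or anticodons called is not given here. The counts therefore describe the settings and not the members. Counts for the interaction and the tissue comparisons stayed within 1.5 times.

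Signs turned as follows, on the log2 scale and in values that had not passed. Genotype levels: Ser-CGA-1-1 in cerebrum −0.22 (mitochondrial) and −0.19 (spike-in); Ser-AGA-1-1 in cerebellum −0.23 (mitochondrial), −0.44 (spike-in), −0.024 (replicate block) and −0.039 to 0.23 without 1 library. Genotype ratios in cerebellum: Ser-AGA-3-1 −0.0085 (pseudocount 5), −0.024 (replicate block) and −0.032 to 0.057 without 1 library; Ser-CGA-1-1 0.019 (sex), 0.012 (replicate block), 0.12 (depth class) and −0.059 to 0.051 without 1 library; Ser-CGA-2-1 −0.077 (depth class) and −0.00075 to 0.072 without 1 library. In cerebrum Ser-AGA-1-1 ran from −0.13 to 0.021 without 1 library. Interaction: Ser-CGA-2-1 −0.061 and Ser-TGA-1-1 −0.088 (spike-in), and without 1 library −0.055 to 0.22 for Ser-CGA-2-1, −0.042 to 0.15 for Ser-TGA-1-1 and −0.23 to 0.070 for Ser-TGA-2. Tissue: Ser-AGA-2 0.0021 and Ser-AGA-3-1 0.16 in wildtypes (library totals); in mutants Ser-AGA-3-1 −0.97 (spike-in) and −0.042 to 0.16 without 1 library, and Ser-CGA-3-1 0.015 (library totals). Same-numbered libraries did not all deviate together: r ran from −0.29 to 0.56 between genotypes, from −0.18 to 0.26 between tissues in mutants and from −0.017 to 0.45 between tissues in wildtypes, where 4 of 6 libraries correlated best with their own number. The labels state no pairing, so the block is an alternative only; with it the tissue counts stayed at 6 of 8 in each genotype and the interaction at 0. Depth limits Ser-AGA-1-1 most, at 11 to 142 reads per library.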

Other observations

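Among anticodons that start with A, Ser-AGA held a small part of its amino acid's counts. It made up 0.439% of nuclear serine counts over the 11 cerebellum libraries and 0.304% over the 10 cerebrum libraries. Ala-AGC made up 66.3% of alanine counts in cerebellum and 64.5% in cerebrum, and Ile-AAT made up 62.6% of isoleucine counts in cerebellum and 53.5% in cerebrum. Thr-AGT made up 48.6% of threonine counts in cerebellum and 45.9% in cerebrum, and Arg-ACG made up 24.2% of arginine counts in cerebellum and 28.3% in cerebrum. Val-AAC, Leu-AAG and Pro-AGG lay between 1.52% and 8.98%, and Gly-ACC was lower still, at 0.0305% of glycine counts in cerebellum and 0.0187% in cerebrum. RefSeq lists more genes for Ser-AGA, 7, than for Ser-CGA, 3, or Ser-TGA, 3. These shares are of assigned counts, and how reads matching several isodecoders were assigned is not stated. Whether they reflect the use of these genes was not tested.

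Libraries that were high for one serine anticodon tended to be high for the others. Over 21 libraries, deviations of log2 CPM from the group mean had a Pearson r of 0.92 between Ser-CGA and Ser-TGA, 0.76 between Ser-AGA and Ser-CGA and 0.71 between Ser-AGA and Ser-TGA. Of 47 other nuclear anticodons, the most like were Ser-GCT (0.85), Asn-GTT (0.82) and Arg-TCG (0.77) for Ser-AGA, Arg-TCG (0.92), Asn-GTT (0.79) and Ser-GCT (0.74) for Ser-CGA, and Arg-TCG (0.79), Tyr-GTA (0.77) and Leu-TAA (0.67) for Ser-TGA. The median r over the 47 was 0.17, 0.13 and 0.13. These points share library and depth, so the values describe these libraries.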
